A study of Mus musculus with 4 samples.

Results

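Epithelial cells cut by laser capture from the ileum of germ-free mice were compared with those of wild type mice, by the 2 ileum arrays of a series of 4. The other arrays are of proximal colon epithelium from the same states and serve here for values set side by side. All mice were C57/Bl6, and the labels add no allele or agent. Wild type mice are called control mice in the study's design text, which does not describe their flora. Their ages, sexes, feed and housing are not stated in the labels. Each array carried RNA pooled from 4 mice, about 4000 captured cells from each, and 40 ng of it was amplified in 2 rounds before hybridisation. Hematoxylin staining is mentioned in the labels of the germ-free samples alone. With 1 array per group there is no replicate, no error between mice and no test, and every difference below is between these pools.

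The ileal epithelium is a single layer that absorbs bile acids, fat, peptides and sugars and keeps bacteria of the gut lumen at a distance. In a colonised gut it carries secreted IgA into the lumen, makes antimicrobial proteins in Paneth cells and enterocytes, and is in contact with lymphocytes. Germ-free animals are known to have few IgA plasma cells and a reduced expression of several of these defence genes. Bacteria also convert bile acids, break down mucin and produce ligands for receptors such as the aryl hydrocarbon receptor. The comparison asks which epithelial genes differ in level when the flora is absent.

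Of 18193 genes with a probe set of their own, 11750 were measured in the ileum, meaning that at least 1 ileum array was above a floor of 62.4 intensity units. A gene is represented by its brightest probe set, intensities are normalized values on a linear scale, and each pair of values below gives the germ-free array first and the wild type array after it. A fold against a value under the floor is a lower bound and is written "at least". The median log2 difference, germ-free minus wild type, was 0.03 over all measured genes, the 25th and 75th percentiles were -0.15 and 0.18, and the SD was 0.31. A count of 27 genes (0.23%) was higher in germ-free by 2-fold or more, and 82 genes (0.698%) were lower by as much, bounds included. At a threshold of 1.5-fold these were 282 genes (2.4%) and 372 genes (3.17%). Of the genes past 2-fold, 32 had a further measured probe set. In 23 of the 32 all further measured probe sets differed in the same direction, and in the rest they did not. Of the 2938 dimmest genes by their brighter ileum array 6 were past 2-fold and higher and 13 lower. The next 2937, at 144 to 388 intensity units, held the most, 15 higher and 42 lower, and had the largest SD, 0.36 log2. The 2937 above them held 4 and 12, and the 2938 brightest 2 and 15. From the 2 brightest probe sets of each of 2353 genes, the spread of a single probe set was estimated at an SD of 0.22 log2. The SD of the difference between such probe sets is larger, by the square root of 2. Only probe sets brighter than 259 in the ileum entered, so the spread of dimmer genes was not estimated. This is a technical spread that says nothing of mice. Chrna3 and Rnf144b lay just past the 2-fold line at 2.01-fold higher, and Hira (at least 1.99-fold) and Tsga10 (1.96-fold) just under it.

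**Figure D1:**
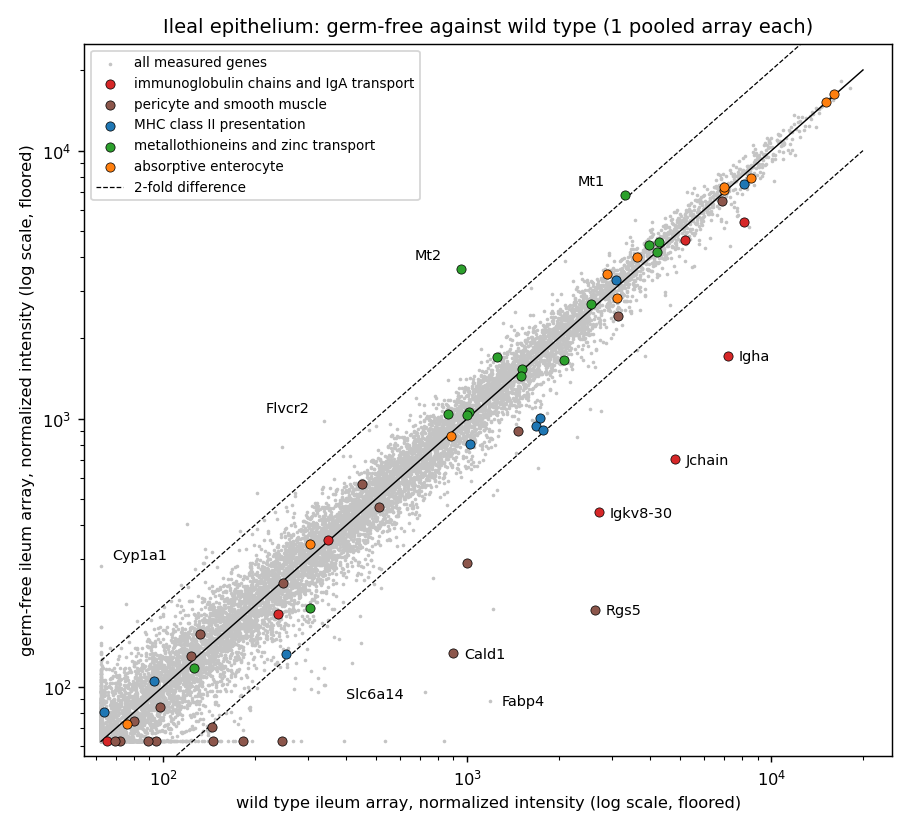
Normalized intensity of each measured gene on the wild type ileum array (horizontal) and the germ-free ileum array (vertical), on log axes with values under the floor set to it. Grey points are all measured genes, coloured points the members of 5 gene lists, and dashed lines mark 2-fold; the points farthest from the diagonal lie below it, with Rgs5 at 193 against 2632.

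The control probe sets of the ileum arrays also differed. As deposited, the 18 probe sets of the hybridisation spikes had a median difference of -0.30 log2 and the 3 for 18S ribosomal RNA -0.93. The 5′ signal of Gapdh relative to its 3′ signal had a log2 difference of -1.10 between the arrays and that of Actb -1.20, against -0.28 for pyruvate carboxylase and -0.10 for the transferrin receptor. All of these were lower on the germ-free array, and their part in the gene differences was not tested. Across measured genes, which share the arrays and the normalization, the 2 ileum arrays had a Pearson correlation of 0.986.

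The captured material had the markers of ileal epithelium on both arrays. Epcam, the epithelial adhesion molecule, read 10598 against 11533, Vil1, the actin bundler of the brush border, 9962 against 10598 and Cdh1, the epithelial cadherin, 6954 against 7165. All 14 epithelial markers were measured, 0 of them were higher by 1.5-fold or more and 0 lower, with a median of -0.12. Their summed intensity was 109082 against 115977. Fabp6, the ileal bile acid binding protein, read 18189.5 against 16920.0, and both subunits of the basolateral bile acid exporter were at like levels, Slc51a at 6780.1 against 7112 and Slc51b at 6847 against 6562. Of the ileal enterocyte list, the hormone gene Fgf15 was under the floor on both arrays, and the other 5 members had a median of 0.06. The absorptive enterocyte list had 0 higher and 0 lower members of 11 at 1.5-fold, and a median of 0.02.

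The gene with the largest difference among those higher on the germ-free array was Cyp1a1, a monooxygenase and the classical target of the aryl hydrocarbon receptor. It read 282 against 53.0, at least 4.52-fold higher, on its single probe set, with the wild type value under the floor. In the colon pair it read 369.6 against 17.9, so that the germ-free array was the higher one in both regions. With the floor raised to the pooled 75th percentile the ileal difference fell to 0.13 log2, since the germ-free value is near that level. The other measured genes of that pathway had no such difference. Ahr, the receptor itself, read 417 against 395, Arnt, its DNA-binding partner, 699 against 682, and Tiparp, a further target, 817 against 773. Cyp1b1 had a difference of 0.09 log2 and Nqo1 of 0.12, while Ahrr, Aldh3a1 and Cyp1a2 were under the floor on both arrays. Of 7 measured members 1 was different by 1.5-fold or more, and the list median was 0.08.

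Metallothioneins, small cysteine-rich proteins that bind zinc and copper, were also higher. Mt2 read 3630.2 against 956, 3.80-fold higher, and Mt1 6843 against 3296, 2.08-fold higher. The log2 difference of Mt1 was 0.97 with the values as deposited, under the 2-fold line. Mt1 was measured by a probe set that can match more than 1 transcript, and both genes share much of their sequence, so their separate levels are uncertain. Mtf1, the zinc-sensing factor that binds the metal response elements of both, read 1703 against 1249.7, a log2 difference of 0.45. Slc30a1, the zinc exporter that shares this regulator, differed by 0.16. Of the zinc transporters only Slc30a10, known as a manganese exporter, was past 1.5-fold, and it was lower, at 196 against 303. Among 15 measured members of the list the 2 metallothioneins were past 2-fold and higher, none was past it and lower, and the median was 0.06. In the colon pair Mt2 had a log2 difference of 0.93 and Mt1 of 0.26.

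The sequences before the transcription starts of Mt2 and Cyp1a1 are shown because both genes were higher. Each is known for response elements, which need not lie in the stretch shown. They are the 250 bases before the RefSeq start of build GRCm38.p6, 5′ to 3′ on the gene's strand. Capitals in Mt2 mark TGCNCNC, a pattern looser than the metal response element core, in which the first N is A or G. Capitals in Cyp1a1 mark the xenobiotic response element core GCGTG. Both strands were searched.
Mt2, chr8:94172368-94172617, plus strand: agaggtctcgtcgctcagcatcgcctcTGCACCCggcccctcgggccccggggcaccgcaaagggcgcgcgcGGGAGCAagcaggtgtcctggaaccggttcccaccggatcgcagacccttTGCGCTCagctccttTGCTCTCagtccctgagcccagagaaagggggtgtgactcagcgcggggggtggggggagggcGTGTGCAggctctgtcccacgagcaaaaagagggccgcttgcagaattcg
Cyp1a1, chr9:57697363-57697612, plus strand: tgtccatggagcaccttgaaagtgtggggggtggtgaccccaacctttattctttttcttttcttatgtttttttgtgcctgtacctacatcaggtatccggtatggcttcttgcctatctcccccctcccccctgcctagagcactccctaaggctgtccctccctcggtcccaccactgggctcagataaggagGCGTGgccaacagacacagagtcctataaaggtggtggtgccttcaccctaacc
The Mt2 window held 5 matches to the loose metal response pattern, starting 223, 178, 128, 113 and 50 bases before the start. Those at 178 and 113 have T at the first N, so they do not match the stricter core. At least 1 match was found in 44.4% of 32851 promoter windows and 5 or more in 0.344%. The Mt1 and Slc30a1 windows held 1 match each. In Cyp1a1 the xenobiotic core was found once, 54 bases before the start, as it was at least once in 28.2% of windows. Response elements farther upstream than the window were not searched, and this match was not identified as one of the gene's known elements. A match is a stretch of letters and no measurement of binding.

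Genes of heme and iron handling differed in both directions. Flvcr2, of a family of heme and choline transporters, read 982 against 337, 2.91-fold higher. Cpox, an enzyme of late heme synthesis, read 239.8 against 114 on its brightest probe set, whereas another probe set read 122 against 132. Cybrd1, the duodenal ferric reductase, was 1.62-fold higher at 117 against 72.1. Lower were Slc40a1, the basolateral iron exporter ferroportin, at 1799 against 3607 with its other probe set at 195 against 421. Slc46a1, a folate and heme transporter, was 1.93-fold lower and Alas1, which makes the first precursor of heme, 1.61-fold lower. Blvrb, a biliverdin reductase, read 57.3 against 101. Past 1.5-fold 3 of 21 measured members were higher and 4 lower, around a median of 0.06.

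Several genes of fatty acid use were moderately higher. Angptl4, a secreted inhibitor of lipoprotein lipase known to be repressed by the flora in the small intestine, read 3062 against 1625, 1.88-fold higher, and in the colon pair 649.8 against 284. Acaa1b, a peroxisomal thiolase, was 1.87-fold higher at 939 against 503 and Cyp4b1, a fatty acid hydroxylase, 1.85-fold higher at 3868 against 2090.4. Mlycd, which degrades the malonyl-CoA that holds back fatty acid oxidation, was 1.94-fold higher. In the colon pair the log2 differences were -0.08 for Acaa1b, 0.39 for Cyp4b1 and -0.62 for Mlycd. Ppara itself, the receptor that controls much of this program, differed by 0.37 log2 and Pdk4, one of its targets, by 0.27. All of these but Mlycd, which is in no list, came from the list of Angptl4, Lpl and PPAR targets. That list also held some of the largest negative differences, in 2 textbook genes of fat tissue. Lpl read 95.6 against 323 and the fatty acid binding protein gene Fabp4 88.4 against 1190.1. The list's 20 measured members had 3 higher and 2 lower at 1.5-fold and a median of -0.01.

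Other higher genes were of transport and small-molecule metabolism. Slc5a12, a sodium-coupled lactate transporter, read 726 against 391 and Slc7a8, a basolateral amino acid exchanger, 475 against 266. Slc22a17, a receptor for lipocalin 2, was 1.88-fold higher. Maob, a monoamine oxidase, read 2281 against 1309.7 and Gsta4, a glutathione transferase for products of lipid peroxidation, 1194 against 677. For Gsta4 the colon pair had a log2 difference of -0.55. Apoc2, the activator of lipoprotein lipase on lipoproteins, was 1.84-fold higher, and Apoh, a plasma apolipoprotein, 1.63-fold higher. Bcl2, the apoptosis inhibitor, read 909.8 against 476, and its other measured probe sets had log2 differences of 1.35, 0.81 and 0.04.

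The rest of the 25 named higher genes belonged to none of the lists, as did Mlycd, Slc5a12, Slc22a17, Maob and Bcl2 above. Fam151a read 403 against 119.7, Copg2, a subunit of the COPI vesicle coat, 784 against 245 and Kctd13, a substrate adaptor of cullin 3, 327 against 137. These 3 stood 3.37-fold higher, 3.20-fold higher and 2.39-fold higher. The scramblase family gene Plscr4 was 2.21-fold higher (0.67 log2 with probe sets averaged), Kctd16, an auxiliary subunit of GABA-B receptors, 2.16-fold higher and the pseudogene Tes3-ps 2.20-fold higher. Arhgap9 read 419 against 214 (a log2 difference of 0.29 without probe sets of type _s_at or _x_at), Atn1, a transcriptional corepressor, 279 against 151, Med18, a Mediator subunit, 323 against 177 and Tmem267 420.3 against 236. The 25 genes ranged down to 1.74-fold, 10 of them were higher by 2-fold or more, and 19 rested on a single probe set. The choice of the largest differences fixes their direction.

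**Figure D2:**
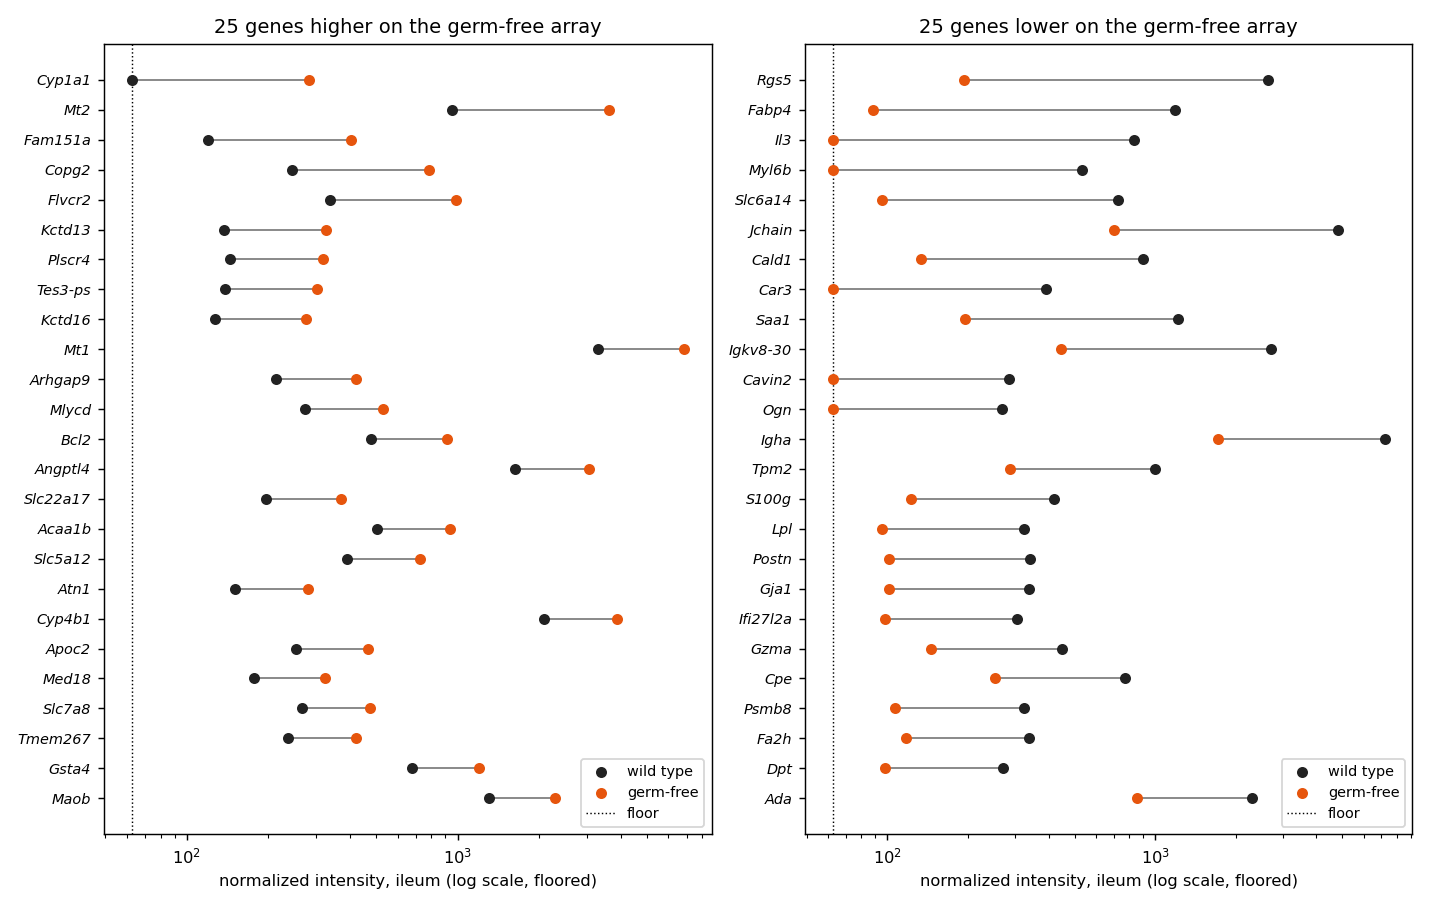
Normalized intensity on the wild type and germ-free ileum arrays (log axis, values under the floor drawn at it) of the 25 named genes with the largest differences in each direction; each point is 1 array and a line joins the pair. The higher genes end at 1.74-fold, and the lower genes, from Rgs5 to Ada, end at 2.67-fold.

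Genes of IgA and its transport were lower on the germ-free array. Igha, the IgA heavy chain, read 1712 against 7204, and its other probe sets 1410.3 against 6509.6 and 419.6 against 3121. Jchain, which joins IgA into dimers for transport, was 6.83-fold lower at 704 against 4808. The light chain segment Igkv8-30 read 446 against 2706, although probe sets for immunoglobulin segments can match other segments. Pigr, the receptor by which epithelial cells carry IgA to the lumen, had a smaller difference, at 5396 against 8144 on its brighter probe set and 935 against 2831 on the other. Ighm, the IgM heavy chain, read 351 against 348. Thus 3 of 8 measured members were past 2-fold, each lower, and the list had a median of -0.48, or -1.10 with probe sets averaged.

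The immunoglobulin genes are products of plasma cells, which lie under the epithelium. Beside Igha and Jchain, which are also in the plasma and B cell list, that list held Cd79b at 58.8 against 97.1, Prdm1, the plasma cell regulator, at 80.7 against 112, and Mzb1, a chaperone of antibody secretion, at 186 against 239. Its summed intensity was 8675 against 18249, 3 of 10 measured members were lower by 1.5-fold or more, and Cd79a, Ms4a1 and Tnfrsf17 were under the floor on both arrays. Sdc1, which both plasma cells and epithelium express, had a difference of 0.07 log2. Fewer cells of a type in the captured material and less RNA per cell cannot be told apart in these pools.

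MHC class II presentation genes were lower by less than 2-fold. H2-Ab1 read 907 against 1774, H2-Aa 942 against 1683, the invariant chain gene Cd74 1002 against 1735 and H2-DMa, which loads peptides, 133 against 254. These 4 of 9 measured members were lower by 1.5-fold or more and 0 were higher, the median was -0.35, and 0 reached 2-fold. The median of the class depended on the floor, at -0.11 with one at the pooled 25th percentile and -0.57 with one at the 75th. H2-Eb1, a further beta chain, read 801 against 1019, and Ciita, the master regulator of the class, 105 against 93.2. Epithelial cells, macrophages, dendritic cells and B cells can all express this class. Of the myeloid list 1 of 16 measured members, Lyz2, was lower by 2-fold or more, the median was -0.21 and the summed intensity 7796 against 8920.0. The macrophage genes Csf1r and Adgre1 had log2 differences of 0.35 and 0.41, while Itgax, Cd68 and Aif1 were under the floor on both arrays. The part of these cells in the class II difference was not tested.

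The windows before H2-Aa and H2-Eb1 show in capitals each match to ATTGG or its reverse complement, the letters of the conserved Y box of the class II promoters. H2-Aa was among the class II genes lower by 1.5-fold or more. H2-Eb1, which was not past 1.5-fold, is shown as a second chain from the same locus. Both are 250 bases before the RefSeq start in GRCm38.p6, 5′ to 3′ on the gene's strand.
H2-Aa, chr17:34287824-34288073, minus strand: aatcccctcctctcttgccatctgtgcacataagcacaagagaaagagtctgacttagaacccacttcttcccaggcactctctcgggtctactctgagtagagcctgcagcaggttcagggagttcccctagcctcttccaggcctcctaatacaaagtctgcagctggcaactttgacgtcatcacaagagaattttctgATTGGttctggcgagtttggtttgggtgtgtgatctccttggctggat
H2-Eb1, chr17:34305617-34305866, plus strand: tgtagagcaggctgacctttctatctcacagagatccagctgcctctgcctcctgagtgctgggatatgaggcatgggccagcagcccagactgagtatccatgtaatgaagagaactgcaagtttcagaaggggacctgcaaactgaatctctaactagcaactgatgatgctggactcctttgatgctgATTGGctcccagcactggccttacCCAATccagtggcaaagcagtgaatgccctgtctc
The match of H2-Aa began 48 bases before the start, and those of H2-Eb1 59 and 35 bases before it. These matches were not identified as the known Y box of either gene. At least 1 match was found in 33.8% of the 32851 windows and 2 or more in 10.1%. For H2-DMa, also lower by 1.5-fold or more, the table held a pair of starts, of which 1 window had 1 match and the other 0. The windows of Cald1, Tpm2, Des, Tpm1 and Rgs5 held 0 matches to a CArG box and that of Myl9 held 1. For interferon response elements the pattern GAAANNGAAA alone was searched. The windows of Psmb8, Psmb9, Tap1 and H2-D1 held 0 matches to it, and Rsad2 and Oas3 1 each. Elements that depart from this pattern were not searched, so 0 matches does not mean that a window lacks one. At least 1 match to the CArG box was found in 1.47% of windows and to GAAANNGAAA in 2.98%, both strands searched.

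Of MHC class I and interferon-stimulated genes a minority were past 1.5-fold. Psmb8, a catalytic subunit of the immunoproteasome, was 3.02-fold lower at 107 against 324, or -0.99 log2 with probe sets averaged. Tap2, a subunit of the peptide transporter, read 144 against 280.2, the trimming peptidase gene Erap1 361 against 585 and the classical heavy chain gene H2-D1 2963 against 4473. At 1.5-fold 4 of 16 measured members were lower and 0 higher, with a median of -0.24. Probe sets of H2 heavy chains can match several genes of the family. The interferon-stimulated list had 4 lower and 2 higher genes past 1.5-fold among 33, and its median was -0.21. Ifi27l2a was 3.13-fold lower, and 3 GTPases of interferon responses were lower as well, Gbp3 at 66.8 against 115, Gbp6 at 206 against 320.3 and Irgm2 at 85.7 against 151. The higher ones were Oas3, a sensor of double-stranded RNA, at 343 against 228 and the antiviral gene Rsad2 at 724 against 412. The other Rsad2 probe sets read 315 against 174 and 186 against 188, so that they did not all differ alike.

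Among antimicrobial genes Itln1 and Lyz2 were lower past 2-fold, while Reg3g and Reg3b, lectins of enterocytes known to respond to bacteria, had smaller differences. Itln1, a lectin of Paneth and goblet cells, read 1706 against 3848 and Ang4, a bactericidal ribonuclease of Paneth cells, 1556 against 2639. Reg3g, the lectin that acts on Gram-positive bacteria, read 9632 against 11960.5 and Reg3b, its relative, 13788 against 14315. Their log2 differences were -0.31 and -0.05. Lyz1, the Paneth cell lysozyme, read 7687 against 10209.6, but another probe set for it read 95.8 against 415, and Lyz2, the macrophage lysozyme, 888 against 1791. Lyz1 and Lyz2 are near-identical copies, so their separate levels are uncertain. Past 2-fold were 2 of 14 measured members, Itln1 and Lyz2, and the median was -0.19.

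The Paneth cell list as a whole had 4 of 9 measured members lower by 1.5-fold or more and a median of -0.41 (-0.81 with probe sets averaged), with Itln1 and Ang4 among them. The others were Nupr1, a stress-induced nuclear protein gene, at 119 against 256 and Clps, the cofactor of pancreatic lipase, at 96.4 against 167. Mmp7, the protease that activates the defensins of Paneth cells, read 279.6 against 360.0. Only 11 of 20 symbols of the list matched a gene, and Defa3 and Pla2g2a were under the floor on both arrays. Goblet cell markers had 0 of 13 measured members past 1.5-fold, with Muc2, the secreted mucin, at 9778 against 11493 and a median of -0.22.

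Further genes of defence and of the luminal surface lay on both sides. Saa1, an acute phase protein gene of the epithelium that responds to the flora, read 195 against 1216, 6.25-fold lower, and its second probe set 82.8 against 742. Saa1 and Saa2 share much of their sequence, and Saa2 was under the floor on both arrays. Cyba, the shared membrane subunit of the NADPH oxidases, read 517 against 1211, while Cybb, its phagocyte partner, read 94.5 against 51.1. The oxidase list had 7 of 13 measured members above 0 and a median of 0.01. St3gal4, a sialyltransferase, was 2.33-fold lower and B3gnt3, which extends mucin-type glycans, 1.56-fold lower. Fut2, the fucosyltransferase known to respond to the flora, was under the floor on both arrays. Tnfsf13b, the B cell survival factor BAFF, read 83.7 against 192. The chemokine genes Cxcl12 and Ccl5 read 118 against 243 and 51.6 against 109.9, and are also in the fibroblast and lymphocyte lists. Higher cytokine genes were Il18, at 914 against 588, and Il1rn, the interleukin 1 receptor antagonist, at 187 against 99.6. Of 22 measured genes of pattern recognition 0 were past 1.5-fold, with a median of -0.12.

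**Figure D3:**
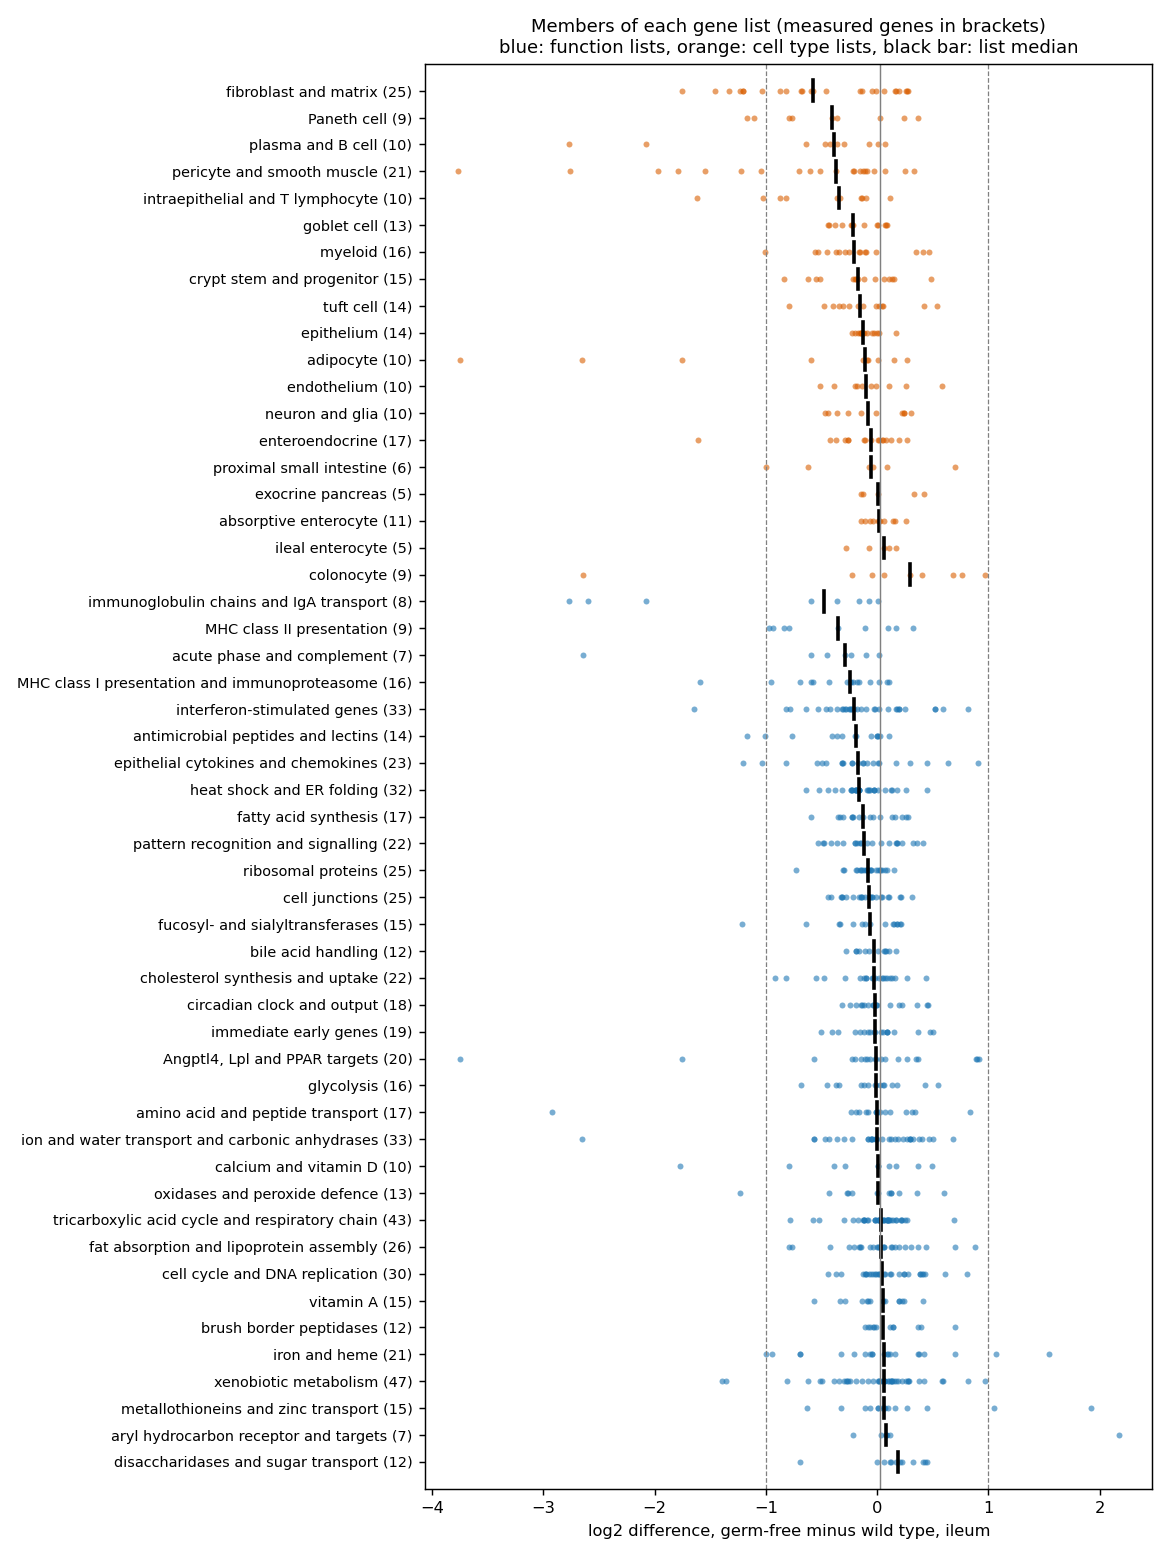
Median log2 difference, germ-free minus wild type, of each gene list in the ileum, with its members as points (orange for cell types, blue for functions); the solid vertical line marks the median of all measured genes, 0.03. The immune and connective tissue lists lie to its left, with fibroblast and matrix at -0.57, and the bile acid list lies close to it.

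Nutrient uptake genes were largely at like levels. The exception of size was Slc6a14, an apical transporter of neutral and basic amino acids, at 95.8 against 727, 7.59-fold lower. Slc15a1, the peptide transporter, read 3457 against 2887 and Slc6a19, the main neutral amino acid transporter, 5366 against 4953. Over 17 measured members of the amino acid and peptide list the median was -0.0019. Among 12 genes of sugar digestion and transport 11 had positive differences and 0 were higher by 1.5-fold or more, with a median of 0.19. Slc2a5, the fructose transporter, read 387 against 284 and Slc5a4b, of the glucose transporter family, 541 against 400.3. The only member with a negative difference was Mgam, maltase-glucoamylase, 1.62-fold lower at 5199 against 8425. The list of brush border peptidases had 1 of 12 measured members past 1.5-fold. This was Acy1, an aminoacylase gene rather than a peptidase of the brush border, at 1811 against 1113.

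Bile acid genes did not pass 1.5-fold. Beside Fabp6 and the exporter, Slc10a2, the apical bile acid transporter, read 509.5 against 618, a log2 difference of -0.28. All 12 measured members stayed within 1.5-fold and the median was -0.03. In fat absorption Apoc2 and Apoh were past 1.5-fold and higher, 2 of 26 members, and 2 were lower, Clps and Apoe, the latter at 50.8 against 106. The cholesterol list had Abca1, the exporter of cellular cholesterol, at 274 against 518 and Fdps, an enzyme of isoprenoid synthesis, at 334 against 587. Its median over 22 members was -0.03. Scd1, the fatty acid desaturase, read 1106 against 1672.

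Xenobiotic metabolism genes lay on both sides. Ces2a, a carboxylesterase, was 2.62-fold lower at 653 against 1712 and Cyp2c55, a monooxygenase, 2.57-fold lower at 1072 against 2756. Cyp3a25 read 2655 against 4650.1 and the alcohol dehydrogenase gene Adh6a 208 against 319. Opposite to these were the carboxylesterases Ces1g, at 236 against 120.4, and Ces1d, at 407 against 269, with Gsta4. At 1.5-fold 3 of 47 measured members were higher and 4 lower, and the median was 0.06. These enzymes come in families of close copies, and a probe set can match more than 1 of them. S100g, the vitamin D-dependent calcium binder of enterocytes, read 123 against 419, 3.42-fold lower, while Vdr, the vitamin D receptor, read 4041 against 3764 and the calcium channel Trpv6 117 against 116. Slc37a1, a sugar phosphate transporter, was 1.73-fold lower.

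Many genes of pericytes, smooth muscle, fibroblasts and fat, cells that lie beneath the epithelium, were lower. Rgs5, a pericyte gene, read 193 against 2632, 13.6-fold lower, and had a log2 difference of -3.77, or -1.55 with probe sets averaged. Its other probe sets read far less on the wild type array, 287 and 78.1, and were lower on the germ-free array as well. Cald1 and Tagln, actin-binding proteins of smooth muscle, read 133 against 900.4 and 26.2 against 245. For Cald1 the log2 difference of -2.76 became -0.90 without _s_at and _x_at probe sets and -0.66 with probe sets averaged. The list also held Tpm2, a muscle tropomyosin, at 288 against 995. Des, the muscle intermediate filament, was at least 2.33-fold lower. Sparcl1, a matrix protein gene, was at least 2.92-fold lower and Abcc9, the channel subunit of pericytes and vascular muscle, 2.06-fold lower. Smaller differences were found in Tpm1, a further tropomyosin, at 899 against 1465 and in the actin crosslinker gene Flna, at least 1.52-fold lower. Acta2, the smooth muscle actin, read 2421 against 3137, a log2 difference of -0.37, and Actg2, the enteric muscle actin, 17.3 against 71.9. Myh11, Cnn1 and Notch3, further defining genes, were under the floor on both arrays. Past 2-fold were 7 of 21 measured members, every one lower, while 3 had positive differences. The median was -0.37 (-0.70 where the 25th percentile was the floor), and the summed intensity 12598 against 18956.

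Among 25 measured fibroblast and matrix genes 7 were past 2-fold and 12 past 1.5-fold, all lower, with a median of -0.57, which was -0.21 with probe sets averaged and -0.066 if the floor was the 75th percentile. Postn, a matrix protein around crypts, read 101 against 341 and Dpt, a binder of collagen, 98.3 against 269.8. Col4a1, of the basement membrane, read 125 against 293, Vim, the mesenchymal filament, 540.1 against 1248 and Dcn, decorin, 27.8 against 144. Col3a1, an interstitial collagen, read 583 against 1031 and Col5a2, which joins collagen fibres, 92.8 against 148. The matrix-binding protein gene Sparc read 139.8 against 256, while the protease inhibitor gene Timp2 was 1.61-fold lower and the complement inhibitor gene Serping1 1.51-fold lower. The summed intensity of the list was 8999 against 10973. In no list were Ogn, a matrix proteoglycan, at 30.3 against 268, and Cavin2, a protein of caveolae, at 48.9 against 284. Over the mean of their probe sets these had log2 differences of -0.11 and -0.33.

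Fat cell genes differed unevenly. Fabp4 read 88.4 against 1190.1 and 68.9 against 697 on its other bright probe set, and Lpl 95.6 against 323. With probe sets averaged the log2 differences were -0.72 for Fabp4 and -0.71 for Lpl. Car3, a carbonic anhydrase of fat and muscle, was at least 6.28-fold lower. Adipoq, the fat hormone adiponectin, was near the floor at 18.6 against 68.3, and Lep and Plin4 were under it on both arrays. Pparg, the receptor that drives fat cell identity but is also epithelial, had a difference of -0.09 log2. Of 10 measured members 3 were lower by 2-fold or more and 3 had positive differences, the median was -0.11, and the summed intensity was 2139 against 4397.

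Endothelial markers were closer to the level of all genes. Of 10 measured members 0 were lower by 2-fold or more, the median was -0.10, and the summed intensity 1342 against 1408. Kdr, the receptor for vascular growth factor, read 154 against 176 and Plvap, of vessel fenestrae, 56.5 against 81.6. Pecam1, Cldn5 and Vwf were under the floor on both arrays.

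Lymphocyte genes were lower in part. Gzma and Gzmb, granzymes of cytotoxic lymphocytes, read 145 against 447 and 42.6 against 127, and Ptprc, the pan-leukocyte phosphatase CD45, 250.1 against 458. Cd8a, which marks most intraepithelial lymphocytes, read 512 against 565, and Itgae, the integrin that holds them in the epithelium, 227 against 292. The CD3 genes Cd3d, Cd3e and Cd3g and Cd4 were under the floor on both arrays. With 2 of 10 measured members lower by 2-fold or more the list had a median of -0.35 and a summed intensity of 1886 against 2668.

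The share of lower genes was then set side by side over groups of cell type lists. Of 66 measured markers of pericytes, smooth muscle, fibroblasts, fat and vessels 17 (25.8%) were lower by 2-fold or more, of 36 plasma cell, lymphocyte and myeloid markers 5 (13.9%) and of 98 epithelial cell type markers 3 (3.06%). Among all 11750 measured genes 82 (0.698%) were, and among the 10929 genes in no list 45 (0.412%). The neuron and glia list, in none of these groups, had 0 of 10 measured members past 2-fold and a median of -0.08. None of the markers in the 3 groups was higher by 2-fold or more. The lists were chosen with results of these arrays known, so these shares describe the arrays and are no independent support. The part of such cells in the differences of IgA, MHC, lipoprotein lipase and cytokine genes was not tested.

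The other named lower genes had varied roles. Il3, a cytokine of T cells and mast cells, was at least 13.4-fold lower at 1.78 against 836, on a single probe set. It was under the floor on both colon arrays. Gja1, the gap junction protein connexin 43, read 102 against 338, and 4 further measured probe sets of it were lower as well. Myl6b, a myosin light chain, read 52.7 against 535. Cpe, the peptidase that trims prohormones in endocrine cells, read 253 against 772, and Fa2h, which hydroxylates fatty acids of sphingolipids, 118 against 338. Ada, adenosine deaminase, read 857 against 2291. These named genes ended at 2.67-fold lower, and 11 of the 25 rested on a single probe set.

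Stem cell, clock and housekeeping lists showed few differences. Olfm4, a marker of crypt base cells, read 966 against 1721 and Smoc2, of stem cells, 102 against 156, whereas the 30 measured genes of the cell cycle had a median of 0.04. Of that list Ccne1, cyclin E1, was 1.75-fold higher and Cdc45, of the replication fork, at least 1.52-fold higher. Circadian genes (18 measured), immediate early genes (19), cell junction genes (25) and vitamin A genes (15) had 0 members past 1.5-fold in either direction. Of 32 genes of protein folding 25 had negative differences, with a median of -0.16, and Pdia6, a disulfide isomerase, read 735 against 1145. Glycolysis and respiratory chain lists had medians of -0.01 and 0.04, with Hk2, a hexokinase, at 667 against 1075. Dld, a subunit of the mitochondrial dehydrogenase complexes, read 383 against 661 and Sco2, which assembles cytochrome oxidase, 1397 against 866. Among 25 ribosomal protein genes Rplp0 alone was past 1.5-fold, at 4399 against 7309.

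The colon pair had more genes past the threshold than the ileum pair. Past 2-fold in the colon were 152 higher genes (1.29% of 11746) and 379 lower ones (3.23%). The pairs share no array, but share the normalization. Among 11065 genes measured in both, 1 gene, Cyp1a1, was higher by 2-fold or more in both, which is 4.35% of the 23 ileal genes and 0.714% of the 140 colonic genes. Lower past 2-fold in both were 13 genes, 19.1% of the 68 ileal and 3.69% of the 352 colonic ones. They were the IgA genes Igha, Jchain and Igkv8-30, Gzma, the epithelial genes Ces2a and S100g, and Nupr1 and Tmem140. The rest were Ogn, Fstl1, Igfbp3, Tpm2 and Lpl, genes known from connective tissue, muscle or fat. Their cells of origin here were not determined.

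Several of the largest ileal differences had no like value in the colon pair. Slc6a14 had a log2 difference of 0.00 there, Saa1 of 0.78 and Rgs5 of -0.95. For the IgA genes the colon values were -3.20 for Igha and -2.98 for Jchain, beside -2.07 and -2.77 in the ileum. Whether a gene's difference was itself different between the regions could not be tested with 1 array per group. Of the 25 named higher genes 22 were measured in the colon, where 3 were past 2-fold and higher as well and 2 past it and lower. At 1.5-fold 5 of the 22 were higher there and 5 lower. Of the 25 named lower genes 23 were measured there, with 8 past 2-fold and lower and 0 past it and higher. At 1.5-fold 13 of the 23 were lower there and 2 higher.

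**Figure D4:**
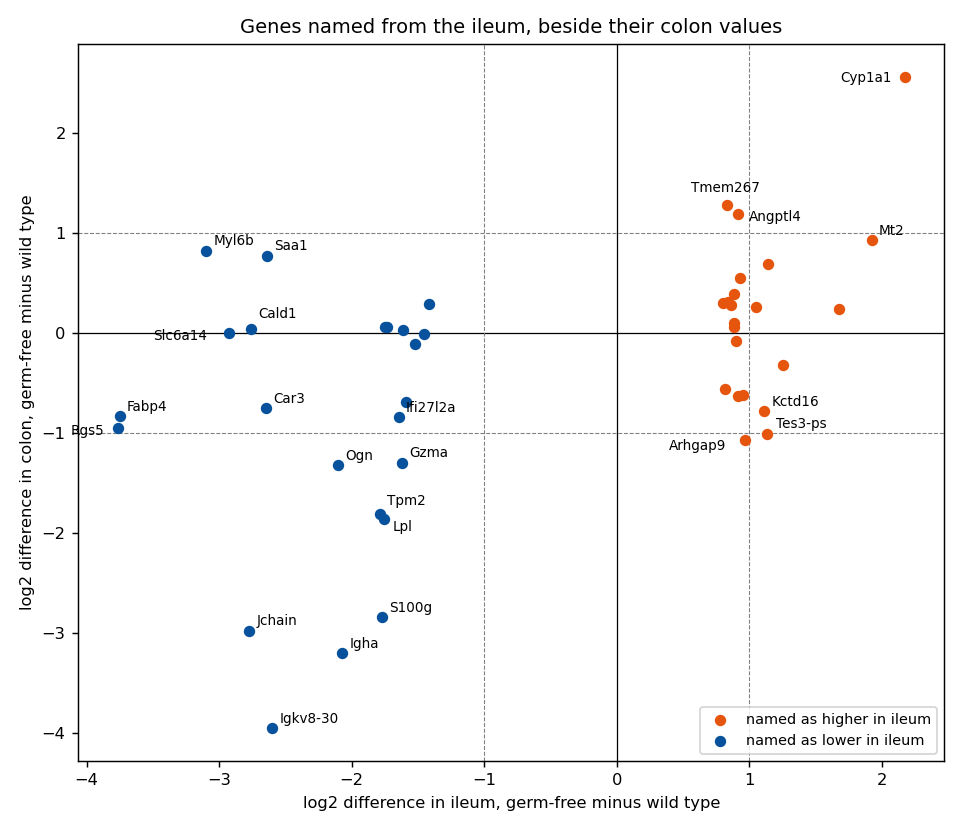
Log2 difference, germ-free minus wild type, in the ileum (horizontal) and the colon (vertical) for the named genes measured in both regions; each point is 1 gene and dashed lines mark 2-fold. Cyp1a1 lies at the upper right, the IgA genes Igha and Jchain at the lower left, and Slc6a14 and Saa1 lie far to the left with colon values of 0.00 and 0.78.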

How the data were processed

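The authors deposited linear intensity values per probe set of a short-oligonucleotide mouse array, made with dCHIP 2004 as the series' design text says. Which of its options were chosen is not given in the sources used. Among 45101 probe sets, 64 controls were set aside. Values were log2-transformed and quantile-normalized over the 4 arrays, and values under the pooled median (62.4) were set to it. Names came from the platform annotation (34945 with 1 symbol, 932 with several, 9160 unnamed here, of which the first kind alone was used), with symbols checked in a RefSeq table of GRCm38.p6, in which 34741 were found and 0 changed. Named genes were the 25 with the largest difference in each direction whose brighter ileum array exceeded the pooled 75th percentile (259), whose difference was 1.5-fold or more and whose further measured probe sets shared its direction, skipping clone names, and list members different by 1.5-fold or more or defining a list. The members and lists were chosen with earlier results of these data known. Promoters came from RefSeq. No p-value was computed. The steps ran in Python 3.11.15 with numpy 2.4.6, pandas 2.3.3 and matplotlib 3.10.9 and were tested on simulated data. On array precision, 1 array per group is the limit. Scaling, floor and probe set choice were varied.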

Additional observations from a re-analysis of the deposited data

Results flagged for a closer look

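In 4 genes the germ-free array was higher by 2-fold or more in the ileum and lower by 2-fold or more in the colon, with 1 array per group in each, and the difference between the regions was not tested. The log2 differences were 1.13 in ileum and -1.01 in colon for Tes3-ps, a pseudogene, and 1.01 and -1.06 for Rnf144b, a ubiquitin ligase gene. For Chrna3, a nicotinic receptor subunit, they were 1.01 and -1.46, the latter a bound since the germ-free colon value was under the floor. The clone-named gene 9030619P08Rik had 1.22, a bound since the wild type ileum value was under the floor, and -1.15. These 4 are 17.4% of the 23 ileal genes and 1.14% of the 352 colonic genes past 2-fold in those directions. Rnf144b and Chrna3 were under 2-fold in the ileum with the values as deposited (0.93 and 0.93), with median scaling (0.96 and 0.95) and with normalization over the 2 ileum arrays (0.94 and 0.97). Rnf144b read 126 against 62.8 in the ileum, the latter just above the floor.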

How the results depend on the processing

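The named genes varied here were 53, the 25 named in each direction and the genes flagged above. Genes named only as list members were not varied singly. None of the 53 changed direction in the alternatives in which it had a value. At the 75th percentile floor 9030619P08Rik, Rnf144b and Chrna3 were no longer measured. Some genes also had no value with probe sets averaged or without _s_at and _x_at probe sets. A missing value is in none of the counts of values below. The 25 in each direction had been chosen with further measured probe sets of like direction, which favours this outcome for the probe set alternatives. Of list medians 41 values, of 18 lists, changed sign, where the reported median was at most 0.063 in size. With the values as deposited 22 genes were past 2-fold and higher and 82 lower, with median scaling 24 and 81, with normalization over the 2 ileum arrays 25 and 76, with all probe sets of a gene averaged 29 and 59 and without _s_at and _x_at probe sets 25 and 78. Like counts did not mean the same genes. Of the 27 higher and 82 lower genes reported, 14 and 45 were still past 2-fold with probe sets averaged. Without _s_at and _x_at probe sets these were 24 and 75. The floor moved the counts most, since it sets how many low values enter. With a floor at the 25th percentile they were 145 and 233, with none 886 and 970, and with one at the 75th percentile 5 and 22. Lists of which the median moved by more than the spread between probe sets did so as follows. With the floor at the 25th percentile MHC class II was at -0.11 and pericyte and smooth muscle at -0.70, and with no floor these were -0.044 and -0.81 and adipocyte -0.51. With the floor at the 75th percentile the medians were -1.33 for immunoglobulin and IgA transport, -0.57 for MHC class II, -0.34 for calcium and vitamin D, 0.062 for colonocyte, -1.03 for plasma and B cell, -0.066 for fibroblast and matrix and -0.60 for adipocyte. With probe sets averaged they were -1.10 for immunoglobulin and IgA transport, 0.062 for colonocyte, -0.81 for Paneth cell and -0.21 for fibroblast and matrix, and without _s_at and _x_at probe sets 0.062 for colonocyte and -0.74 for Paneth cell. The cause of these moves in list medians was not tested. Of the named genes' values under alternatives 394 kept their side of 1.5-fold and 20, of 18 genes, did not. At the higher floor these were Cyp1a1, Kctd13, Plscr4, Tes3-ps, Kctd16, Slc22a17, Atn1, Med18, Cavin2, Ogn, Lpl, Postn, Gja1, Ifi27l2a, Psmb8, Fa2h and Dpt, as Cavin2 and Ogn were with probe sets averaged and Arhgap9 without _s_at and _x_at probe sets. Of named genes past 2-fold, 35 values of 23 genes came under that line, 18 of them at the higher floor and 8 with probe sets averaged. No paired analysis was possible because each group has 1 array, and leaving one out leaves no comparison. Low signal limits genes near the floor.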

Other observations

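Probe sets outside the gene counts also held differences. Of 9160 probe sets with no gene name here 3312 were measured in the ileum, and 15 of them were higher by 2-fold or more and 9 lower on the germ-free array. For the 932 probe sets with several symbols 568 were measured, with 2 higher and 8 lower. Probe sets with 1 symbol had 42 higher and 157 lower of 19845.

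Enteroendocrine, tuft and colonocyte markers were not described above. Of 17 measured enteroendocrine markers Cpe alone was lower by 2-fold or more, and the median was -0.06. For 14 tuft cell markers it was -0.15, with Dclk1, a kinase of tuft cells, 1.73-fold lower. Colonocyte markers had 3 of 9 measured members past 1.5-fold and higher, 1 lower and a median of 0.30. They included Aqp8, a water channel, at 130.5 against 81.3 and Slc37a2, a sugar phosphate transporter, at 133 against 78.5, both higher as was Ces1g, while Saa1 was lower.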
